A study of Mus musculus with 6 samples.

Results

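Clca genes encode a small family of secreted or membrane-anchored proteins with a metalloprotease domain in their N-terminal part, first described as calcium-activated chloride channels and now known to process themselves and to modulate other chloride channels. In the gut, Clca1 is a secreted product of goblet cells and a component of mucus, whereas Clca4a (also called Clca6) is known from the apical membrane of absorptive enterocytes. The genes lie side by side as 1 tandem cluster on mouse chromosome 3, and several are close copies of each other.

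The 7 genes described here are Clca4a, Clca4b, the transcribed pseudogene Clca4c-ps, Clca3a1, Clca3a2, Clca3b and Clca2. Their array rows were taken by gene symbol: 8 rows of 41345 in all, 8 of the 23521 that carry a single symbol. Clca4a has 2 rows and each other gene has 1; where a gene had several rows the one with the highest mean was used. The family was chosen by its log2 signals in these 6 mice, both the spread between mice and the contrast between the genotypes. Its spread and its differences between genotypes are therefore given as a description. Counts of the genes past a threshold stand beside the share of all rows and support nothing.

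RNA came from colonic mucosa of normal appearance beside tumours, 1 Affymetrix Mouse Gene 2.0 ST array per mouse, from male BALB/c mice. The groups were 4 wild-type mice (WT, Mthfd1S+/+) and 2 heterozygotes (Mthfd1S+/-), which are deficient in the 10-formyltetrahydrofolate synthetase activity of the folate enzyme MTHFD1. All 6 mice, WT included, had received azoxymethane (AOM, a colon carcinogen, 6 mg/kg) and 3% dextran sulfate sodium (DSS, an epithelial toxin that causes colitis) in 2 cycles of 4 days each, and were killed 13 weeks after AOM. The DSS cycles were in weeks 1 and 4, and the mice had been backcrossed for 10 generations. The labels give an age of 7 months, while the protocol gives 3 months at injection. The question put to the arrays is how mucosal gene expression differs between the genotypes after that treatment; no mouse without AOM and DSS is among the arrays.

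Epithelial genes were well represented: the 12 epithelial identity genes, among them Epcam, Cdh1, Krt8 and Cdx2, had mean log2 signals of 8.83 to 12.4, against a median of 5.97 over all tested rows. Array medians ran from 5.48 to 5.53. The row of Mthfd1 itself read 7.496 to 7.75 in WT mice, and 7.96 and 7.63 in heterozygotes. The groups overlapped there, and the effect of the allele on the transcript is not stated in the labels, so this row does not check the genotypes. None of the 23521 rows passed a Benjamini-Hochberg adjusted p of 0.05 in limma (0% called, smallest adjusted p 0.837; 1363 rows at an unadjusted p under 0.05), and unmoderated least squares also called 0.

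The upstream sequence of Clca4b is shown because this gene carries the wide spread between mice that is described next. It is the 250 bases before the transcription start in RefSeq, 5′ to 3′ (build GRCm38.p6, chr3:144932530-144932779, minus strand). Capitals mark the matches to TATAAA or TATATA on either strand.
Clca4b: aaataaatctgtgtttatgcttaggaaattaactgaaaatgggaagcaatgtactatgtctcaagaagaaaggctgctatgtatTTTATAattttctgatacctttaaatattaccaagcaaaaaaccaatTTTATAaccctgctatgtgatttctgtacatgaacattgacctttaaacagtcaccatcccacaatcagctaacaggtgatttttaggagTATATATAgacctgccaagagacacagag

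The capitals form 3 runs, and the last of them, TATATATA, ends 22 bases before the start. TATATA, which overlaps itself there, is in 5.25% of 32851 mouse promoter windows of the same length, and TATAAA is in 12.4%. These matches are descriptions of letters, not binding sites.

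Clca4b differed between mice of the same genotype more than almost any other row. WT mice 1 to 4 read 8.87, 8.57, 6.58 and 4.91 on the log2 scale. The heterozygotes read 9.70 and 5.78. Both the highest and the second lowest of the 6 values were thus from heterozygotes, and the ranges of the groups overlapped. As read, the lowest and highest WT mice were 15.6-fold apart, the heterozygotes 15.1-fold, and the extremes of all 6 mice 27.5-fold; the low end of each is below the median level of tested rows, where signal cannot be told from background without detection calls, which were not used here.

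The SD between WT mice was 1.85 for Clca4b (n = 4), against a median of 0.11 over all tested rows. This was the second largest of 23521, after the potassium channel gene Kcnma1 (2.08), and over all 6 mice the SD of Clca4b (1.91) was the largest of all tested rows. Leaving out WT mouse 4 lowered the WT SD to 1.25 and its rank to 16, and leaving out WT mouse 1 gave rank 6.

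Against that spread the genotypes gave no direction for Clca4b. The means were 7.23 ± 1.85 (SD, n = 4) for WT mice and 7.74 ± 2.77 (SD, n = 2) for heterozygotes, a log2 difference of 0.50 ± 1.27 (SE). The difference was 0.27 of the WT SD, and 79.5% of tested rows had a larger ratio. It became -1.45 without the first heterozygote, 2.46 without the second and -0.27 without WT mouse 4.

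**Figure D1:**
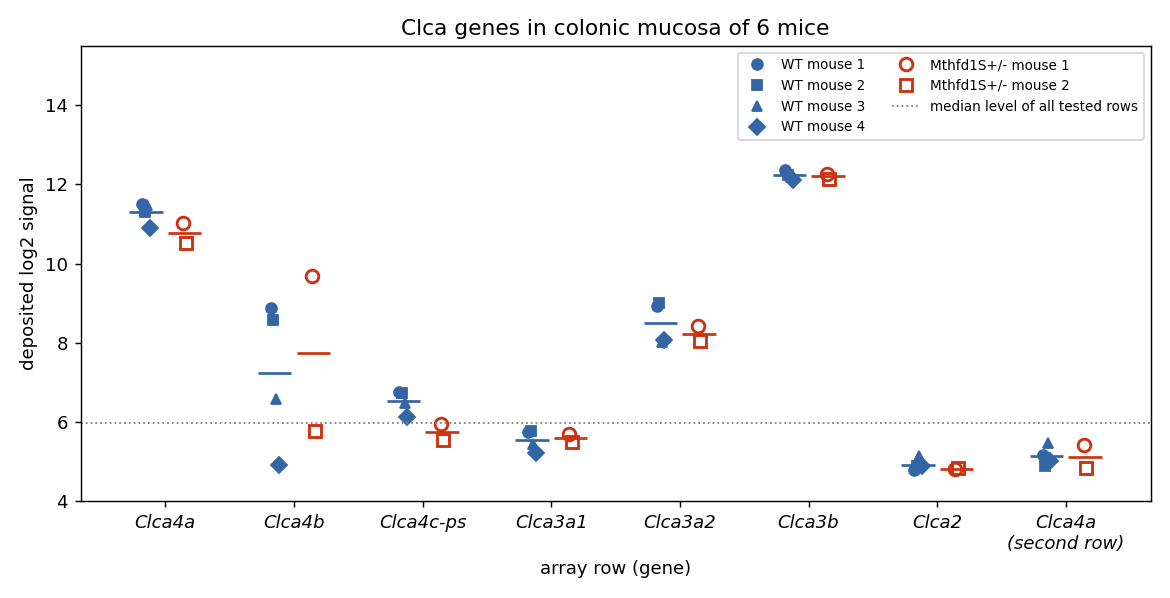
Deposited log2 signal of the 8 Clca rows (x axis, genes in italics) in each of the 4 WT mice (filled blue symbols) and 2 Mthfd1S+/- mice (open red symbols), with horizontal lines at the group means and a dotted line at the median of all tested rows. Clca4b spans 4.91 to 9.70 with the genotypes intermixed, while Clca3b stays between 12.1 and 12.4; heights of different genes are not comparable, since each row has its own probes.

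Clca4a, the enterocyte member, had a far narrower spread. WT mice 1 to 4 read 11.5, 11.3, 11.5 and 10.9, whereas the heterozygotes read 11.0 and 10.5. The second heterozygote was the lowest of the 6, and the first lay above WT mouse 4, so the groups overlapped. Means were 11.3 ± 0.28 (SD, n = 4) and 10.8 ± 0.37 (SD, n = 2), a log2 difference of -0.52 ± 0.20 (SE), or 1.43-fold, which is 1.88 times the WT SD; 14% of tested rows had a larger ratio. The value was -0.26 without the second heterozygote and -0.78 without the first.

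The second row of Clca4a did not share this pattern. It read 5.16, 4.88, 5.46 and 5.01 in WT mice, against 5.42 and 4.83 in the heterozygotes, with a log2 difference of -0.0047 ± 0.20 (SE). All 6 values are below the median level of tested rows.

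Clca4c-ps, the pseudogene between Clca3b and Clca4b in the cluster, was the only gene of the 7 whose groups did not overlap. WT mice read 6.75, 6.73, 6.49 and 6.12, whereas the heterozygotes read 5.94 and 5.54. Both heterozygotes were below every WT mouse, a pattern that 6.04% of all tested rows show. Means were 6.52 ± 0.29 (SD, n = 4) and 5.74 ± 0.29 (SD, n = 2), a log2 difference of -0.78 ± 0.19 (SE), or 1.72-fold as read and 2.65 times the WT SD; 6.67% of tested rows had a larger ratio. Both heterozygotes lie just below the median level of tested rows, so the same limit of background holds for this fold. At an unadjusted p under 0.05 in limma were 2 of the 7 genes, Clca4a and Clca4c-ps (5.79% of all tested rows in either direction), and 1 of them, Clca4c-ps, was also at least 1.5-fold apart (0.336% in either direction and 0.187% lower). Groups that do not overlap in either direction were found in 14% of tested rows. The contrast served to pick the genes, so nothing is read from these counts. For Clca4a the unadjusted p in limma rose above 0.05 without WT mouse 1 (0.064), WT mouse 2 (0.052), WT mouse 3 (0.062) or the second heterozygote (0.29). WT mouse 4 was the lowest WT mouse for Clca4a, Clca4b and Clca4c-ps, and also for Clca3b and Clca3a1.

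The Clca3 genes differed less between the genotypes than Clca4a in relation to their WT spread, though that contrast was not tested. Clca3a2 read 8.92 and 9.01 in WT mice 1 and 2, 8.03 and 8.08 in WT mice 3 and 4, and 8.42 and 8.04 in the heterozygotes. The WT mice thus fell into a high and a low pair nearly 2-fold apart (1.97-fold at the extremes), and the heterozygotes lay within their range. Its WT SD of 0.53 ranked 106 of 23521, and the log2 difference of -0.28 ± 0.29 (SE) was 0.54 of that SD. The value was -0.090 without the second heterozygote, -0.11 without WT mouse 2, -0.15 without WT mouse 1 and -0.47 without the first heterozygote.

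Clca3b, which lies next to Clca3a2 in the cluster, read 12.4, 12.2, 12.2 and 12.1 in WT mice, against 12.3 and 12.1 in heterozygotes. All 6 mice lay within 1.20-fold. Its WT SD of 0.11 was below the median of tested rows, alone among the 7 genes, and its log2 difference was -0.023 ± 0.098 (SE).

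Clca3a1 and Clca2 were dim. Clca3a1 read 5.75, 5.78, 5.46 and 5.20 in WT mice and 5.71 and 5.50 in the heterozygotes, with a log2 difference of 0.055 ± 0.17 (SE). Clca2, whose human counterpart is known from stratified epithelia, read 4.78, 4.88, 5.15 and 4.89 in WT mice and 4.81 and 4.84 in the heterozygotes, with a log2 difference of -0.10 ± 0.11 (SE). Both means lie below the median of tested rows, so these values do not show that either gene is expressed in this mucosa. Of 14 measured squamous epithelium markers 13 were also below that median, among them Krt14 and Trp63. Their mean level, with each gene centred over the 6 mice, ran from -0.072 to 0.080 in WT mice and was 0.12 and -0.037 in the heterozygotes.

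**Figure D2:**
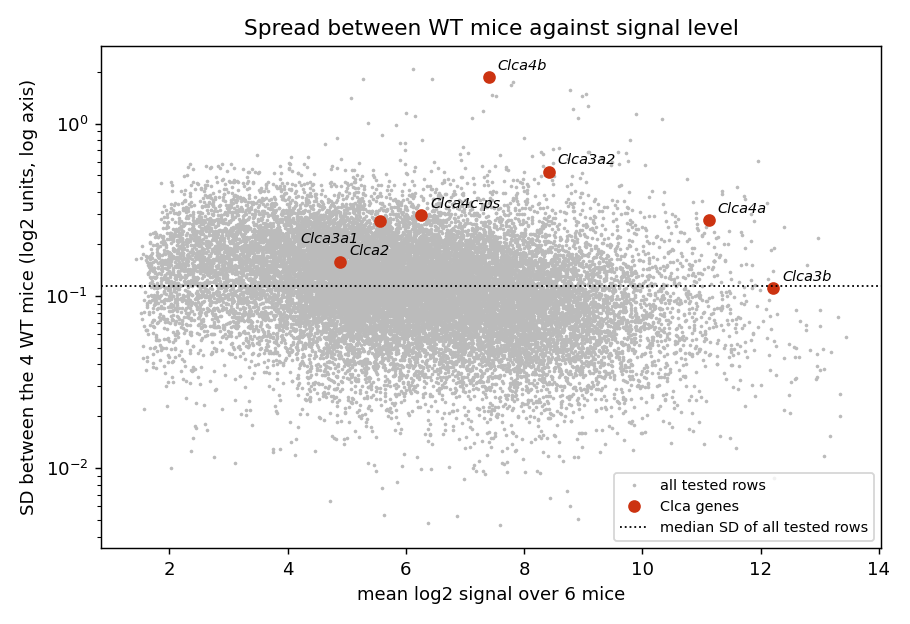
SD of the log2 signal between the 4 WT mice (y axis, log scale) against the mean log2 signal over 6 mice (x axis) for all 23521 tested rows (grey) and the 7 Clca genes (red). Clca4b lies at the upper edge with an SD of 1.85, and Clca3b lies on the dotted line of the median SD, 0.11.

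Over the 7 genes, 5 were lower and 2 higher in Mthfd1S+/- mucosa, with a median log2 difference of -0.10 against 0.012 over all tested rows, of which 46.0% were lower. The sign held across all alternatives tried for Clca4a on its main row, Clca4c-ps, Clca3a2 and Clca2, and it turned in at least 1 of them for Clca4b, Clca3a1 and Clca3b. For 5 of the 7 the difference was smaller than the SD between WT mice; the exceptions were Clca4a and Clca4c-ps. The median WT SD was 0.28, against 0.11 over all tested rows, and 5 of the 7 genes were in the tenth of rows with the widest WT spread. One of these 5 was the dim Clca3a1. The spread served to pick the family, so nothing is read from this count. In bulk mucosa, fewer cells of a type and less RNA per cell cannot be told apart.

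**Figure D3:**
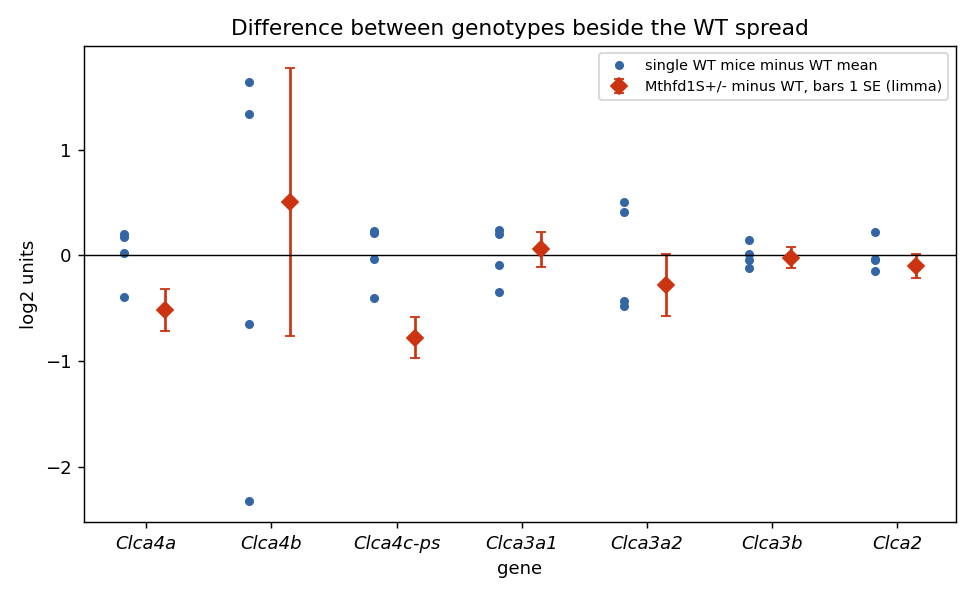
Log2 difference Mthfd1S+/- minus WT of the 7 Clca genes (red diamonds, bars 1 SE from limma) beside the single WT mice, each as its distance from the WT mean (blue points). The difference lies below all 4 WT points for Clca4a (-0.52) and Clca4c-ps (-0.78) and inside their range for the other genes.

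Clca1, the goblet cell member of the family, lies between Clca4a and Clca2 in the cluster and is not among the 7. It read 12.6, 12.8, 13.0 and 12.8 in WT mice and 12.7 and 12.9 in the heterozygotes, with a log2 difference of -0.011 ± 0.11 (SE). The nearest tested genes outside the cluster were Hs2st1, Selenof and Sh3glb1 on one side and Odf2l, Col24a1 and Znhit6 on the other. Their WT SDs ran from 0.034 for Hs2st1 to 0.17 for Znhit6, and their log2 differences from -0.16 for Odf2l to 0.089 for Znhit6. The wide spread of Clca4b was thus not seen in the rows that flank the cluster.

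The order of the mice differed between the Clca4 genes. Over the 6 mice Clca4a and Clca4c-ps had a Pearson r of 0.93, whereas Clca4b had 0.50 with Clca4a and 0.41 with Clca4c-ps. Clca4b was closer to Clca3a1 (0.91), Clca3b (0.85) and Clca3a2 (0.75). Among the 6170 rows of the ranking given next, these would have placed 43, 158 and 414. Clca3a1 and Clca3b do not meet the limits of that ranking. The mean of Clca3a1 (5.57) is below the median level of tested rows, so its signal cannot be told from background. The SD of Clca3b over the 6 mice (0.094) is below 0.1. These correlations over 6 mice describe the arrays only. They include the difference between genotypes, and close copies such as the Clca4 genes and the Clca3 genes may share transcripts that the same probes read.

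Genes were also ranked by likeness to each Clca4 gene, by Pearson r over the 6 mice, among 6170 rows of named genes above the median level with an SD of at least 0.1. For Clca4a the first 5 were Krt20, a keratin of differentiated surface epithelium (0.98), Sgpp2, a sphingosine phosphate phosphatase (0.98), Ly6m (0.98), Muc3, a membrane mucin of the brush border (0.98), and Ccng2 (0.97). Krt20 and Muc3 belong to the list of absorptive colonocyte genes. In all, 112 of the rows had an r over 0.9. Krt20 read 12.0, 12.0, 12.0 and 11.8 in WT mice and 11.9 and 11.7 in the heterozygotes, so its range over 6 mice (1.27-fold) was narrower than that of Clca4a (1.97-fold), while Ly6m spanned 2.96-fold.

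For Clca4c-ps the first 5 were Fendrr (0.99), Cds1 (0.99), Calml4 (0.99), Tpm3 (0.99) and Trim31 (0.98), and Clca4a would have ranked 66. For Clca4b they were Dnttip1, Lrif1, Kif15, Prmt1 and Gpn2, all at 0.98. These 5 spanned only 1.20-fold to 1.40-fold over the mice in which Clca4b spanned 27.5-fold as read. None of the first 5 for Clca4b is on the colonocyte list. That list holds only a small part of the rows compared, so nothing is read from their absence.

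**Figure D4:**
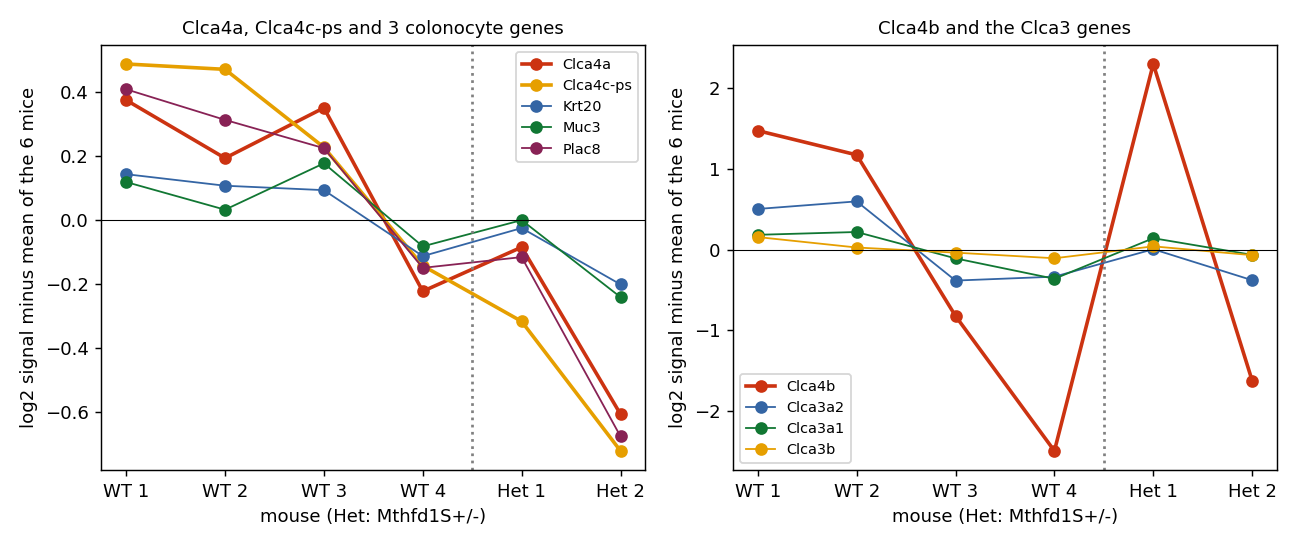
Log2 signal of single genes minus the mean of the 6 mice (y axis) in each mouse (x axis; WT 1 to 4, then the Mthfd1S+/- mice as Het 1 and 2); lines join the values of 1 gene and imply no order of mice. On the left Clca4a and Clca4c-ps run with Krt20, Muc3 and Plac8 and are lowest in the second heterozygote. Krt20 and Muc3 were chosen for their likeness to Clca4a, so that they run together is no result. Plac8 was chosen for its small p among colonocyte genes, of which 18 were lower and 10 higher. On the right, on a wider scale, Clca4b is highest in the first heterozygote and lowest in WT mouse 4.

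Other genes of absorptive colonocytes had differences of both signs. Of 28 measured, 18 were lower and 10 higher in Mthfd1S+/- mucosa, with a median log2 difference of -0.033; 2 were lower and 2 higher at an unadjusted p under 0.05, where 2.44% and 3.36% of all tested rows are, and 0 passed the adjusted threshold in limma. Plac8 had -0.59 ± 0.19 (SE) and Ceacam20, a microvillus protein, -0.28 ± 0.11. On the other side were Cyp2c55, a cytochrome P450 of the colon, at 0.57 ± 0.12, and the sulfotransferase Sult1a1 at 0.56 ± 0.22. Vil1, the brush border protein villin, had -0.20 ± 0.11.

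Plac8 read 10.3, 10.2, 10.1 and 9.74 in WT mice and 9.77 and 9.21 in the heterozygotes. As for Clca4a, WT mouse 4 and the first heterozygote were close together and the second heterozygote was lowest. Cyp2c55 read 12.6 and 12.5 in the heterozygotes and at most 12.1 in WT mice.

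Of 21 measured genes of colonic anion secretion, the channels and transporters among which Clca proteins have been placed, 9 were lower and 12 higher, with a median of 0.022. At an unadjusted p under 0.05 were 1 lower and 1 higher gene, where 2.44% and 3.36% of all tested rows are. In limma 0 passed the adjusted threshold. The chloride channel Clcn2 had -0.26 ± 0.11 (SE) and the sodium-potassium-chloride cotransporter Slc12a2 0.23 ± 0.10. Ano9 had -0.24 ± 0.13, the potassium channel subunit Kcne3 -0.18 ± 0.10 and the bicarbonate cotransporter Slc4a4 0.21 ± 0.12.

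Markers of some other cell types leaned with the genotypes as well, with 0 past the adjusted threshold in limma. Other lists were mixed: endothelium (7 higher, 5 lower), T and NK cells (8 and 5) and tuft cells (5 and 4). So were macrophages, dendritic cells and neutrophils (10 and 6), stem cells and crypt base (8 and 5), and B and plasma cells (4 and 7). All 16 smooth muscle markers were higher in Mthfd1S+/- mucosa, as were 13 of 14 enteric neuron and glia markers and 14 of 15 fibroblast markers, with 2, 3 and 3 of them at an unadjusted p under 0.05 (3.36% of all tested rows are so on the higher side). The mean centred level of smooth muscle markers was -0.25 to 0.080 in WT mice, with WT mouse 4 the highest, and -0.048 and 0.42 in the heterozygotes. For neurons and glia the values were -0.34 to 0.15, then 0.0074 and 0.34, and for fibroblasts -0.27 to 0.12, then 0.039 and 0.20. In these 3 lists the first heterozygote lay within the WT range, and the second, lowest for Clca4a and Clca4c-ps, was the highest of the 6 mice. All 11 enteroendocrine markers were higher (median 0.20, 0 at an unadjusted p under 0.05), with -0.19 to 0.020 in WT mice and 0.053 and 0.22 in the heterozygotes. Adipocyte markers were lower in 8 of 10 (median -0.44), with -0.31 to 0.97 in WT mice, where WT mouse 3 was the highest, and -0.44 and -0.31 in the heterozygotes. Epithelial identity genes were lower in 10 of 12 (median -0.078), with centred means of -0.013 to 0.053 in WT mice and -0.0095 and -0.084 in the heterozygotes. Goblet cell markers (5 higher, 10 lower) had -0.052 to 0.15 and then -0.23 and 0.079. WT mice 1 and 2, which read high for Clca4b, read lowest for smooth muscle, for neurons and glia, and for fibroblasts. The first heterozygote, highest for Clca4b, read above both in these lists. The part of these markers in the values of Clca4a, Clca4b and Clca4c-ps was not tested.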

How the data were processed

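The submitters' processing notes name Affymetrix Expression Console as the authors' tool for the deposited log2 signals, 1 per transcript cluster and array. Which version, summarisation, background correction and build were used is not given in the sources used here. That the values are log2 was inferred from their range, 1.06 to 13.5. Precision is limited by having 6 arrays: the median SE of a log2 difference was 0.11.

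Rows were named through the platform table, and only the 23521 rows with 1 gene symbol were tested (1814 had several symbols and 16010 none). All 7 Clca symbols matched the RefSeq gene table of GRCm38.p6, which served for names and gene order. The fit of genotype used limma 3.58.1 under R 4.3.3 (lmFit, eBayes, no covariate, Benjamini-Hochberg over all tested rows); SEs are limma's, SDs are plain. The fit code was tested on simulated arrays with independent errors. That test does not cover genes that shift together in a mouse.

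The Clca genes and all lists were chosen with earlier results of these data known. The rule for named genes was every Clca row, Clca1 and up to 5 genes with the smallest p in the colonocyte and anion lists. It also took the nearest 3 tested genes on each side of the cluster and the 5 rows most like each Clca4 gene. That likeness left out predicted, small RNA, olfactory and vomeronasal receptor and antigen receptor genes. Mthfd1, Kcnma1, Krt14, Trp63, the epithelial identity genes and the genes under Other observations were named outside the rule. Alternatives were other row sets, variance models and scalings, a replicate block and leaving out each mouse. Some upstream sequence is not reported here.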

Additional observations from a re-analysis of the deposited data

Results flagged for a closer look

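In 2 of 40 rows examined for a WT mouse that stands apart from the other 3, the gap was above Dixon's 95% critical value; chance flags about 1 group in 20. Ccng2, among the genes most like Clca4a, read 8.13 in WT mouse 4 and 8.41 to 8.43 in the other WT mice, a gap of 0.927 of the range. Cyp2c55 of the colonocyte list read 11.7 in WT mouse 3 and 12.1 in each of the others (0.989). None of the 8 Clca rows was flagged.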

How the results depend on the processing

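The count of rows past the adjusted threshold stayed at 0 under every alternative tried. The count at an unadjusted p under 0.05 and 1.5-fold was 79; it was 635 over all rows of the table, 30 with unmoderated least squares, 43 with only rows above the median level, and 65 to 340 when each mouse was left out. With arrays centred on their median 58.3% of these rows were higher, against 44.3% as deposited, and the share was 14.5% over all rows. The replicate number as a block gave 292; only 2 numbers are shared by the genotypes, nothing in the labels pairs them, and deviations of same-numbered mice had r of 0.12 and -0.044. That block takes WT mice 3 and 4 out of the contrast, since no heterozygote shares their numbers. What remains is WT mice 1 and 2 against the heterozygotes. With it Clca4a had -0.63, Clca4c-ps -0.997, Clca4b -0.98 and Clca3a2 -0.74. For Clca3a2 the unadjusted p in limma went from 0.37 to 0.00084, with its low WT pair (8.03 and 8.08) no longer in the contrast. The block leaves fewer residual degrees of freedom than the 4 of the main fit. That small p therefore leans on the variance limma borrows from other rows, and nothing is read from it. Of the 7 Clca genes 5 were lower as deposited, 4 with median-centred arrays, 7 with the block, and 4 to 7 when each mouse was left out. The median WT SD of the 7 was 0.18 to 0.32 in those sets of mice. The anion secretion median was 0.049 with median-centred arrays and -0.041 to 0.044 without single mice; the colonocyte median was -0.11 to 0.0043. Without a heterozygote, the lone one is assumed to vary like the WT mice.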

Other observations

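Rows with a wide spread were set beside Clca4b by a rule chosen after seeing the data: named genes above the median level with an SD of at least 0.4 over the 6 mice (136 rows), ranked by Pearson r. The 5 closest were Krtap4-16 (0.93), Vsig1 (0.85), Wfdc18 (0.85), Mal (0.85) and Sprr1a (0.85). Sprr1a, a cornified envelope precursor induced in stressed epithelia, read 10.0, 9.52, 8.88 and 8.48 in WT mice, against 9.30 and 8.30 in heterozygotes, a 3.34-fold range. The 5 that ran most against Clca4b were Ccn2, a matricellular growth factor gene (-0.97), Krt17 (-0.80), Muc1 (-0.79), Gpnmb (-0.79) and Clps (-0.76). Ccn2 read 7.32, 7.17, 7.55 and 7.99 in WT mice and 6.86 and 7.90 in the heterozygotes, so its lowest and highest mice were the highest and lowest for Clca4b.

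The other rows with the widest WT spread were of different kinds. Kcnma1 read 7.11, 9.47, 5.499 and 4.79 in WT mice, and the pentraxin gene Mptx1 8.27 in WT mouse 3 and at most 4.79 in the other WT mice. Cyp2e1, the adipocyte gene Car3, the heat shock gene Hspa1a and the secreted defence genes Ang4, Reg3b and Itln1 were also among the first 10.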
